A study of Sus scrofa with 4 samples.

Results

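The genes described here encode subunits of the mitochondrial respiratory chain and ATP synthase. They were found by symbol: every pig gene, named through a RefSeq transcript of the array design, whose symbol starts with NDUF, SDHA, SDHB, SDHC, SDHD, UQCR, COX4, COX5, COX6, COX7, COX8 or ATP5, together with *CYCS* and *CYC1*. This gave 24 of the 2389 genes that could be named, read by 106 probes. Of the 24, 23 were bright enough to be tested, on 104 probes, among 2158 named genes tested. The symbols found are those of nuclear genes for 4 accepted subunits of complex I, *NDUFA4*, 2 subunits of complex II, 2 of complex III, cytochrome c, 8 of complex IV and 6 of ATP synthase. No assembly factor with one of these prefixes was among them. Subunits encoded by mitochondrial DNA were not analysed here.

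The respiratory chain sits in the inner mitochondrial membrane. Complexes I and II pass electrons from nutrients to a quinone, complex III hands them on to the small mobile protein cytochrome c, and complex IV, cytochrome c oxidase, gives them to oxygen. The proton gradient built on the way drives ATP synthase, which makes ATP. Absorptive cells of the small intestine depend on this ATP for the sodium pump that powers uptake of nutrients, and several subunits of complex IV exist in a general form and in a form found mainly in muscle.

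RNA was taken from ileum, the stretch of small intestine before the colon, of suckling piglets aged 16 days, offspring of Yorkshire × Landrace sows and Duroc boars. Low weight gain was represented by 2 arrays, each of a pool from 2 piglets, and high weight gain by 2 arrays, each of a pool from 3 piglets. The arrays of a group carry the letters a and b, and the labels do not say whether these were separate pools or repeats of 1 pool, so p-values measure only the spread between arrays, which may be technical. The design text describes the groups by weight at birth, whereas the labels of the samples, followed here, give weight gain. All piglets were fed by lactating sows, and the labels list no other treatment. Of 43803 spots that were not controls, 32835 to 33972 were well above background on each array. Of 13 listed markers of absorptive enterocytes, 7 were named and tested, which required being well above background on both arrays of at least 1 group. These 7 were so in each group. In such bulk tissue, fewer cells of a type and less RNA per cell cannot be told apart.

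Transcripts of the respiratory chain differed little between the groups. Over the 23 genes, 1 probe each, the median difference of low gain minus high gain was 0.12 on the log2 scale, and it ran from -0.11 for *COX6C* to 0.43 for *CYCS*, the gene for cytochrome c. The mean was higher in low gain for 20 genes and lower for 3. Over all 2158 named genes the median was 0.025, with 53.4% higher in low gain, and over the 537 named genes at least as bright as the dimmest of the 23 it was 0.049, with 63.1% higher. None of the 23 passed the test (limma with Benjamini-Hochberg adjustment over all 33265 probes tested, threshold 0.05, lowest adjusted p = 0.198, n = 2 arrays per group), against 0.417% of named genes and 0.24% of all probes. At an unadjusted p under 0.05 there were 2, *CYCS* and *COX7A1*, against 21.6% of named genes.

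On the brightest probe of each gene the sizes were small. On that probe no gene differed by more than 0.5 on the log2 scale, as 15.8% of named genes and 5.96% of those at least as bright as the dimmest of the 23 did. Of the 23 genes, 19 differed by less than 0.25. Over all 104 probes of the 23 genes, 2 differed by more than 0.5. The standard errors ran from 0.099 to 0.14. The 95% intervals of the brightest probes, not adjusted for the number of genes, all lay between -0.38 and 0.71. This corresponds to at most 1.30-fold lower and 1.64-fold higher in low gain, and 21 of the intervals held 0. The intervals rest on the spread between arrays, which may be technical, and do not bound a difference between animals. Some other probes went beyond them, such as 1 of *CYCS* at -0.86 (interval -1.16 to -0.56) and 1 of *UQCRB* at 0.48 (interval 0.14 to 0.81). Values were called separate where the ranges of the groups did not overlap. This was so for 12 of the 23 genes, 11 of them with low gain higher and 1 with low gain lower. Among named genes the shares were 61.8% in all, 32.6% with low gain higher and 29.2% with low gain lower.

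**Figure D1:**
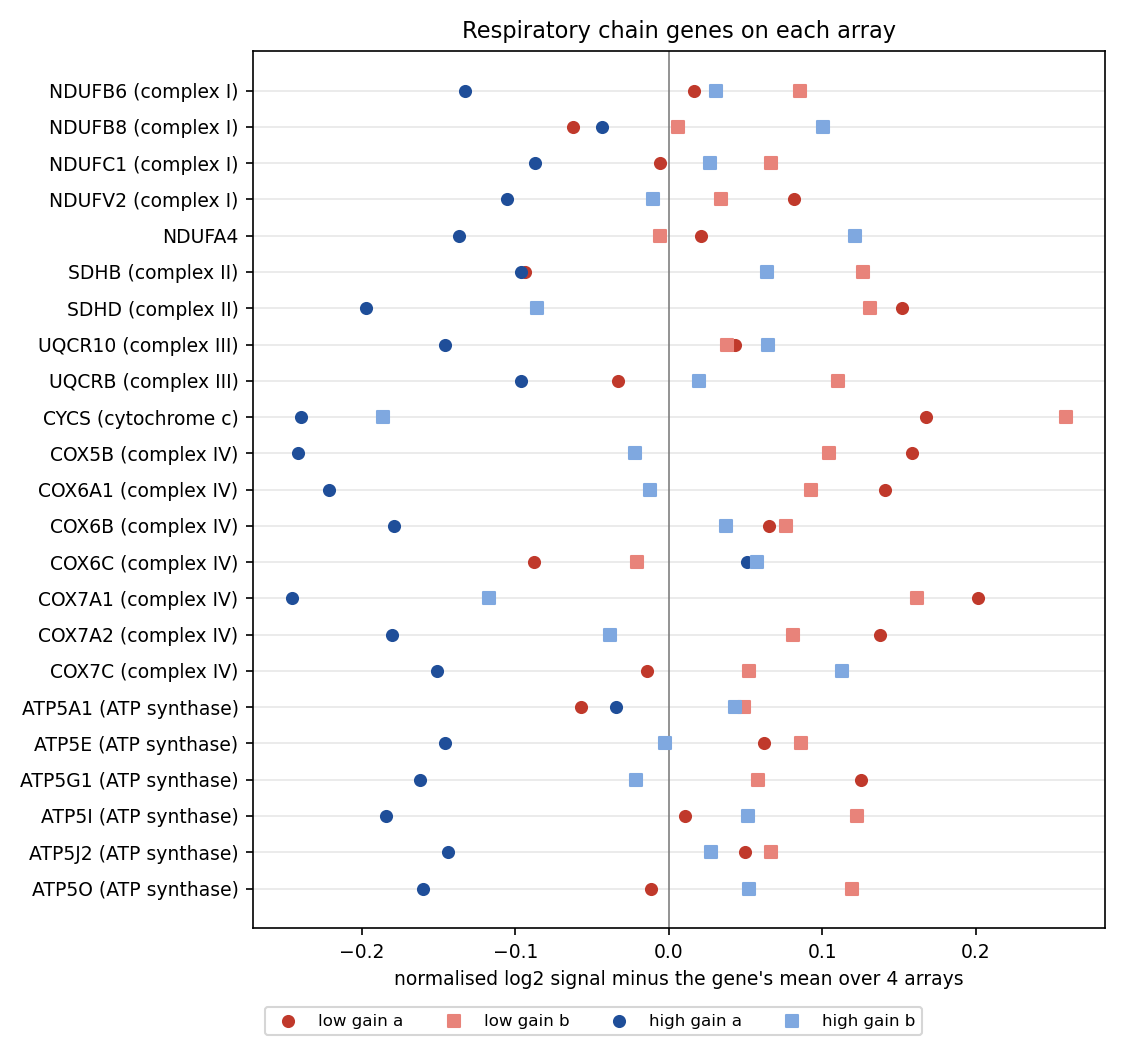
Normalised log2 signal of 23 respiratory chain genes on each of the 4 arrays (points), with each gene's own mean over the arrays subtracted (horizontal axis). High gain a, the dark blue circles, lies below high gain b for each of the 23 genes, while the arrays of low gain cross each other on this scale but not with median centring.

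With the main scaling, the size of the median depended on the high-gain array compared. High gain a was below high gain b for all 23 genes, with differences of a minus b from -0.26 to -0.0069 and a median of -0.14, while low gain a was below low gain b for 14 genes and above it for 9. That contrast depended on the scaling: with median centring low gain a was below low gain b for 23 genes too (median -0.10), in the deposited table for 19 (median -0.098), and high gain a was below high gain b for 23 and 21. With normexp background correction high gain a was above high gain b for all 23 (median 1.70), and low gain a was below low gain b for all 23 (median -1.88). The median of low minus high gain was 0.11 with that correction. With the main scaling, the mean of the low-gain arrays was higher than high gain a for 22 genes and lower for 1, with a median of 0.20. Against high gain b, it was higher for 16 genes and lower for 7, with a median of 0.020. Other bright transcripts also differed between the high-gain arrays. High gain a was below high gain b for 31 of 32 genes of the cytosolic ribosome (median -0.088). The same held for 84.5% of the 537 named genes at least as bright as the dimmest of the 23, against 57.7% of all named genes. After quantile normalisation, 19 of the 23 genes were still lower on high gain a, with a median of -0.059, while the share of those 537 named genes was 52.9%. The median over the 23 of low minus high gain was then 0.084. Below, the value against a single high-gain array is given where it turned a direction.

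**Figure D2:**
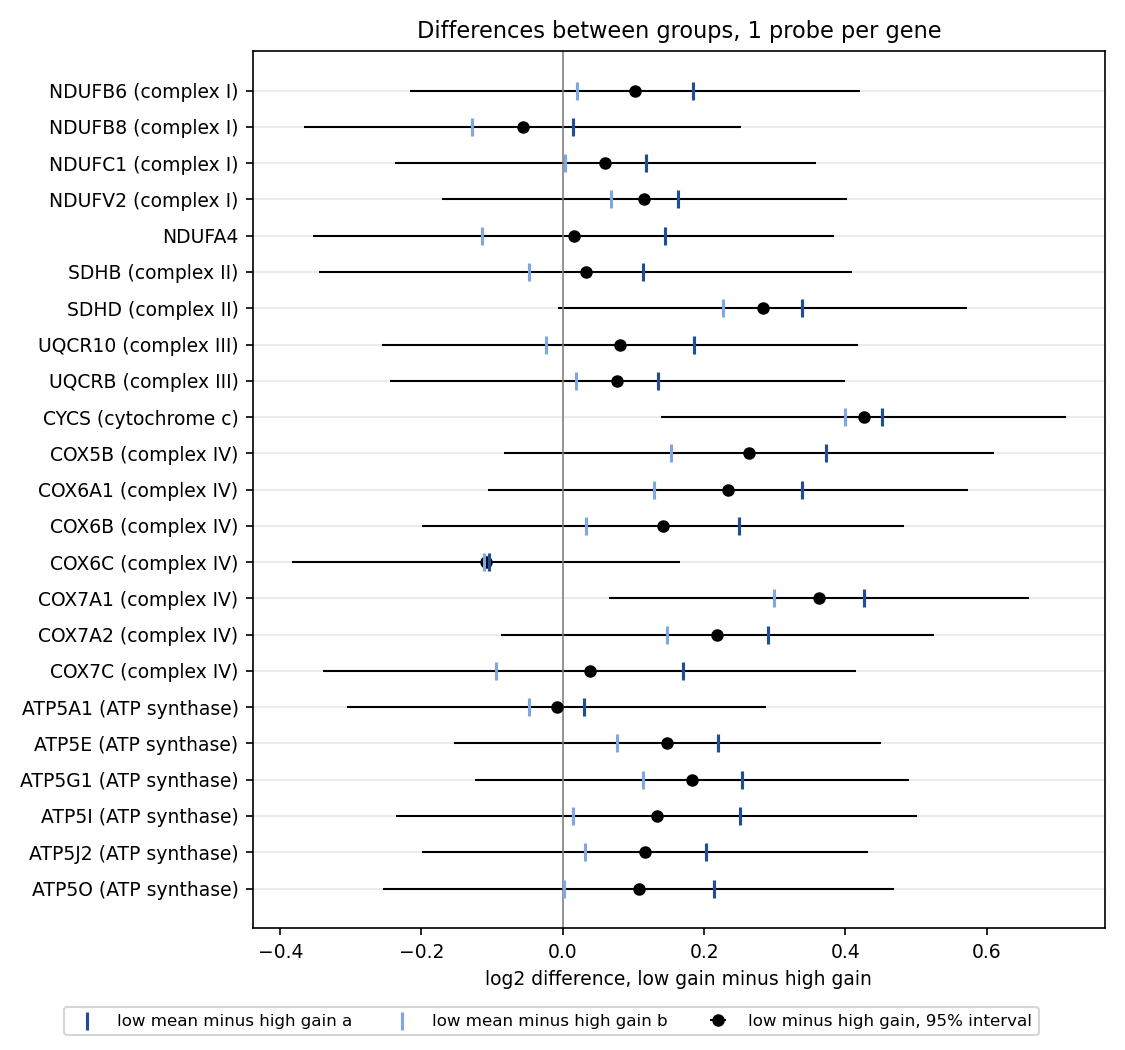
Log2 difference of low gain minus high gain for each of the 23 genes (black points) with its 95% interval from limma, and the mean of the low-gain arrays minus each high-gain array alone (dark blue bars for a, light blue bars for b). *CYCS* and *COX7A1* are the 2 genes whose interval lies above 0, and for 7 genes the difference from high gain b alone is below 0.

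Cytochrome c carries electrons from complex III to complex IV and, once released into the cytosol, takes part in the start of apoptosis. The brightest probe of its gene, *CYCS*, had normalised log2 signals of 4.98 and 5.07 on low-gain arrays a and b and of 4.57 and 4.62 on high-gain arrays a and b. Here and below, this value is the log2 of the spot's processed intensity minus the 75th percentile of its array, so that 0 is that percentile. Both low-gain arrays lay above both high-gain arrays, and the gap between groups exceeded those within them. The difference was 0.43 ± 0.10 (SE, n = 2 arrays per group), or 1.34-fold, the largest of the 23 genes, and it did not pass the test (limma adjusted p = 0.198). It passed when the prior variance was allowed to follow signal intensity (limma adjusted p = 0.0341), a fit in which 7.88% of named genes passed and no other of the 23 did.

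*CYCS* was read by 12 probes, whose differences were of unlike size. Of the other 11, 10 were also higher in low gain, by 0.024 to 0.38, and 1 was lower by 0.86, from 4.09 in high gain to 3.23 in low gain (limma adjusted p = 0.128). That probe was the furthest from 0 of all 104 probes of the 23 genes. The median over the 12 probes was 0.10. Mammalian genomes hold processed copies of this gene, and which probes could read them was not tested, so its values are uncertain.

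On the brightest probes, and with *NDUFA4* kept apart, complex IV had the highest median of the complexes with more than 1 gene. It was 0.22 over 7 tested subunits, of which 6 were higher in low gain and none passed the test. This order depends on the probes chosen: *UQCRB* of complex III, at 0.077 on its brightest probe, had a median of 0.32 over its probes. The muscle form of subunit 7a, *COX7A1*, stood at 3.88 and 3.84 on the low-gain arrays and at 3.43 and 3.56 on the high-gain arrays. All of the low-gain values were above all of the high-gain values, and the difference was 0.36 ± 0.11 (1.29-fold, limma adjusted p = 0.225). It was read by 1 probe. The form of the same subunit found in most tissues, *COX7A2*, stood at 7.05 and 6.99 in low gain and at 6.73 and 6.87 in high gain. Its groups did not overlap either, its difference was 0.22 ± 0.11 (limma adjusted p = 0.372), and its other 4 probes gave 0.14 to 0.22. The differences of both forms were 0.14 apart, and this gap was not tested. Both genes were also higher in low gain than on high gain b alone, by 0.30 and 0.15.

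*COX6A1*, the general form of subunit 6a, had the most even probes of the 23 genes. Its brightest probe stood at 7.77 and 7.72 in low gain and at 7.41 and 7.62 in high gain. The difference was 0.23 ± 0.12 (1.18-fold, limma adjusted p = 0.386), and the other 4 probes gave 0.22 to 0.24. *COX5B*, a nuclear subunit that binds zinc, stood at 7.52 and 7.46 in low gain against 7.12 and 7.34 in high gain. Its difference was 0.26 ± 0.13 (limma adjusted p = 0.352), with 0.11 and 0.15 on its other probes. In these genes the high-gain arrays lay further apart from each other than the low-gain arrays, high gain a being the lowest of the 4.

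The remaining subunits of complex IV were closer to 0. *COX6B*, which the current nomenclature calls *COX6B1*, differed by 0.14 ± 0.12, with its other probe at 0.21. *COX7C* differed by 0.038 ± 0.14, and its value turned to -0.094 against high gain b alone, although its other probes gave 0.15 and 0.18. *COX6C* was the exception in direction. It stood at 6.32 and 6.39 in low gain and at 6.46 and 6.47 in high gain, so that both low-gain arrays were below both high-gain arrays. Its difference was -0.11 ± 0.099 (limma adjusted p = 0.582), and its other 2 probes gave -0.11 and -0.037. *COX8H*, the heart and muscle form of subunit 8, was not well above background on any of the 4 arrays with either of its 2 probes, and no difference is given for it.

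Complex I, the NADH dehydrogenase, had a median of 0.081 over 4 subunits. *NDUFV2*, a core subunit with an iron-sulphur cluster in the arm that takes electrons from NADH, was the highest. It stood at 4.89 and 4.84 in low gain and at 4.70 and 4.80 in high gain, groups that did not overlap. The difference was 0.12 ± 0.10 (limma adjusted p = 0.576), and its other 4 probes gave 0.031 to 0.19. *NDUFB8*, an accessory subunit of the membrane arm, was the lowest, with 5.52 and 5.59 in low gain and 5.54 and 5.68 in high gain. Its arrays overlapped, the difference was -0.057 ± 0.11 (limma adjusted p = 0.800), and the 3 further probes gave -0.13 to -0.016. The mean of low gain lay 0.015 above high gain a alone. The accessory subunits *NDUFB6* and *NDUFC1* differed by 0.10 and 0.060, and their second probes gave -0.0043 and 0.0062.

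*NDUFA4* was first described as a subunit of complex I and is now counted with complex IV. It stood at 6.69 and 6.66 in low gain and at 6.53 and 6.79 in high gain, so that the low-gain values lay between those of high gain. Its difference of 0.015 ± 0.13 (limma adjusted p = 0.958) turned to -0.0076 after quantile normalisation and to -0.11 against high gain b alone, and the 5 further probes gave -0.16 to -0.050.

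Complex II, succinate dehydrogenase, belongs both to the chain and to the tricarboxylic acid cycle. *SDHD*, which anchors the enzyme in the membrane, stood at 3.18 and 3.16 in low gain and at 2.83 and 2.95 in high gain. The groups did not overlap, and the difference was 0.28 ± 0.10 (1.22-fold, limma adjusted p = 0.277), but 3 of its other probes gave 0.025 to 0.15 and 1 gave -0.067. *SDHB*, the iron-sulphur subunit, stood at 3.88 and 4.10 in low gain and at 3.88 and 4.04 in high gain. These values overlapped, and the difference was 0.033 ± 0.14 (limma adjusted p = 0.910). Among the 6 further probes 5 had a difference below 0, the lowest at -0.15, and against high gain b alone its brightest probe was at -0.048.

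In complex III, which oxidises the quinone, *UQCR10* and *UQCRB* had nearly the same difference on their brightest probes. *UQCR10*, a small subunit, stood at 6.48 on both low-gain arrays and at 6.29 and 6.50 in high gain, so that low gain lay between the high-gain arrays. The difference was 0.081 ± 0.12 (limma adjusted p = 0.736), and -0.024 against high gain b alone. *UQCRB*, which encodes the subunit that binds ubiquinone, stood at 5.32 and 5.46 in low gain and at 5.26 and 5.37 in high gain, a difference of 0.077 ± 0.12 (limma adjusted p = 0.737). Its brightest probe was the lowest of its 7, however. The other 6 were higher in low gain by 0.25 to 0.48, each with groups that did not overlap, and none passed the test (lowest limma adjusted p = 0.197). The median over the 7 probes was 0.32, against 0.10 over the probes of *CYCS*.

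ATP synthase had a median of 0.12 over 6 subunits, 5 of them higher in low gain. *ATP5G1* encodes subunit c, which forms the rotating ring in the membrane, and is 1 of several genes for the same mature protein. It stood at 6.60 and 6.53 in low gain and at 6.31 and 6.45 in high gain, groups that did not overlap. The difference was 0.18 ± 0.11 (1.14-fold, limma adjusted p = 0.438), on its only probe. *ATP5O*, which encodes the stalk protein that joins the catalytic head to the membrane part, differed by 0.11 ± 0.13 (limma adjusted p = 0.675), and its other 9 probes gave 0.045 to 0.22, all higher in low gain. *ATP5E*, the epsilon subunit of the central stalk, differed by 0.15 ± 0.11, and its other probe by -0.25. *ATP5I* and *ATP5J2*, small subunits e and f of the membrane part, differed by 0.13 and 0.12, with 0.087 and 0.041 on their other probes.

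The catalytic head of ATP synthase holds the alpha subunit, encoded by *ATP5A1*. Its brightest probe stood at 6.97 and 7.08 in low gain and at 6.996 and 7.07 in high gain, and the difference was -0.0088 ± 0.11 (limma adjusted p = 0.971), with 0.030 against high gain a alone. The gene was read by 14 probes, the most of any of the 23 genes, and 12 of them were lower in low gain. The differences ran from -0.56 to 0.041 with a median of -0.17, and 10 of the 14 probes had both low-gain arrays below both high-gain arrays, against 26.9% of all tested probes. None passed the test (lowest limma adjusted p = 0.220). Across the 14 probes the difference followed the brightness of the probe: the 4 brightest lay between -0.017 and 0.041, and the 5 dimmest between -0.56 and -0.32 (Spearman correlation 0.97, as a description of probes that share 1 transcript).

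**Figure D3:**
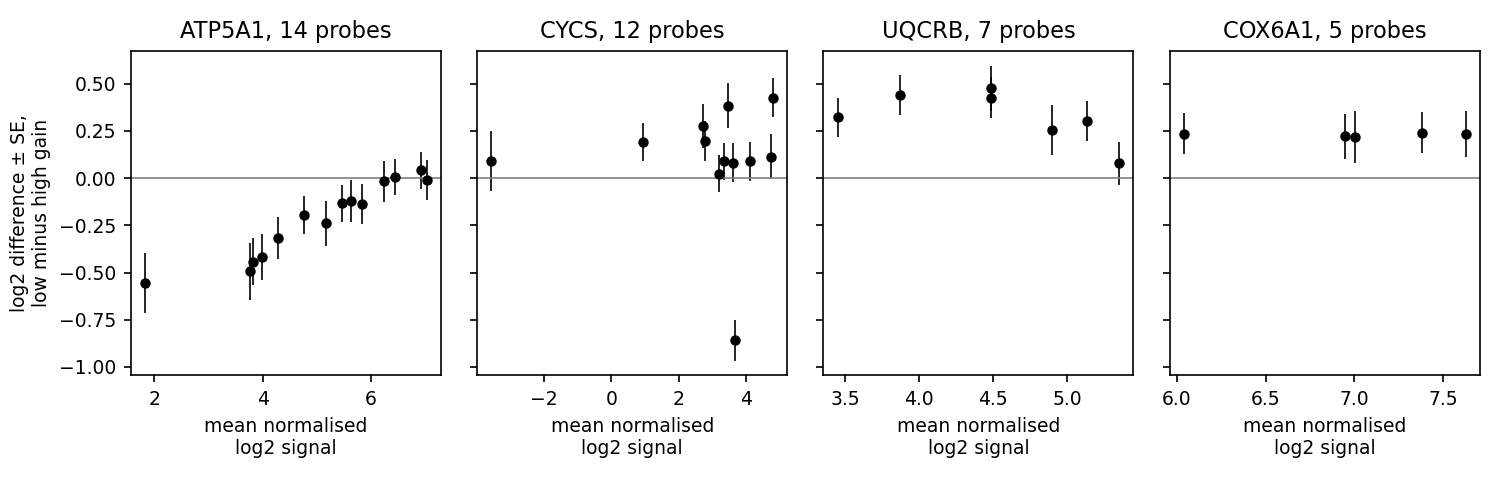
Log2 difference of low gain minus high gain, with its standard error from limma, against the mean normalised log2 signal of each probe for 4 genes. The probes of *ATP5A1* run from 0.041 to -0.56 towards dim signals, those of *CYCS* hold 1 probe at -0.86, 6 of the 7 probes of *UQCRB* lie above its brightest, and the 5 probes of *COX6A1* stay between 0.22 and 0.24.

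Of the 20 genes read by several probes, 13 had all of them on the same side of 0, and 7 did not: *ATP5A1*, *ATP5E*, *CYCS*, *NDUFA4*, *NDUFB6*, *SDHB* and *SDHD*. The dimmest probe gave a lower value of low minus high gain than the brightest for 14 of the 20 genes, with a median gap of -0.075. The same held for 72.6% of the 1166 named genes with several tested probes, with a median gap of -0.15, so most named genes had a gap in the same direction. With the dimmest probe in place of the brightest, the median over the 23 genes was 0.081, with 16 genes higher and 7 lower in low gain. With the mean over all probes it was 0.092, with 17 higher and 6 lower.

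**Figure D4:**
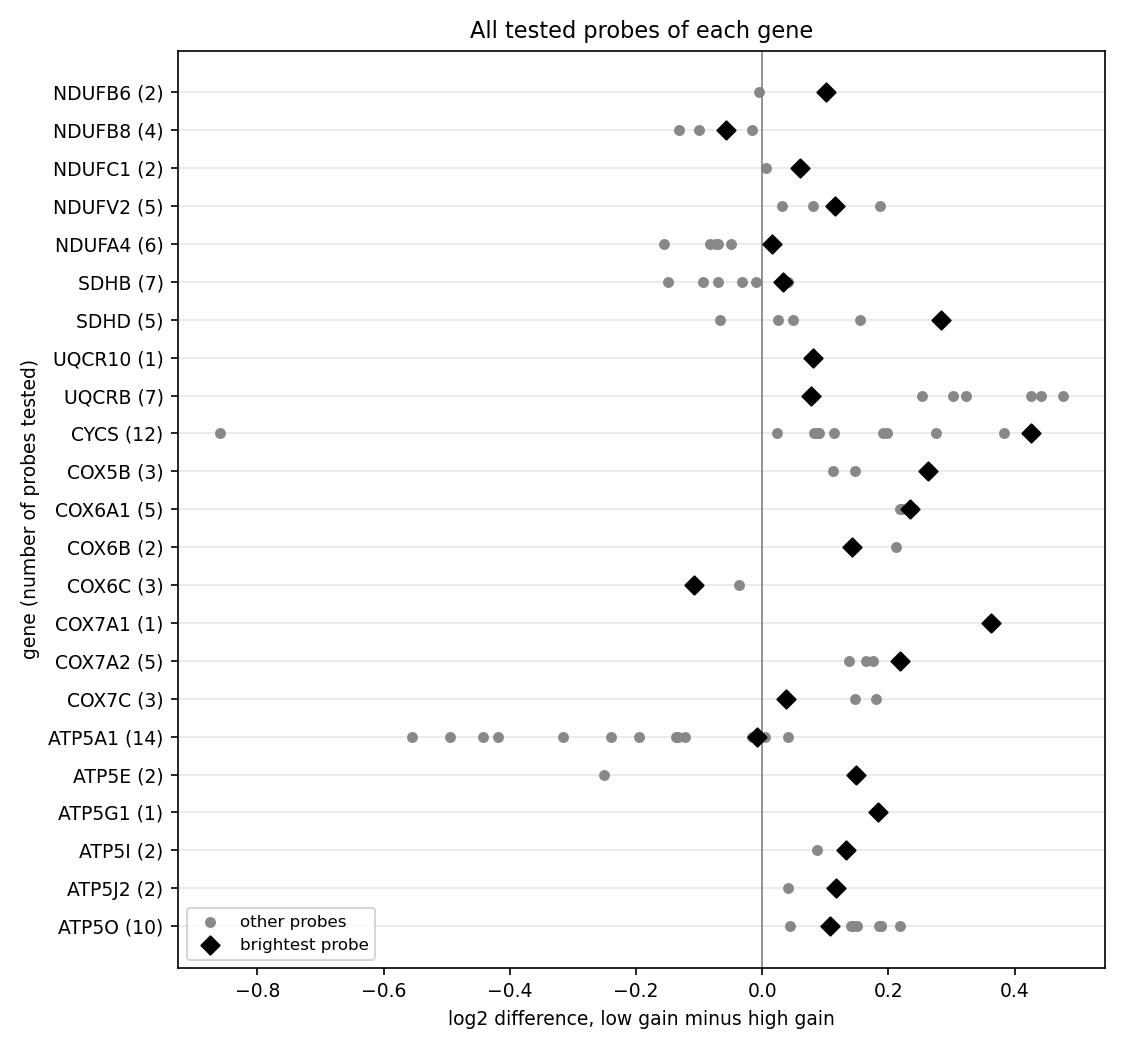
Log2 difference of low gain minus high gain for every tested probe of the 23 genes, with the brightest probe of each gene as a black diamond and the number of probes in brackets. The 104 probes run from -0.86 (*CYCS*) to 0.48 (*UQCRB*), and 71 of them are above 0.

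Other genes of mitochondrial metabolism were measured in small numbers. In the tricarboxylic acid cycle and pyruvate dehydrogenase, which feed electrons to the chain, 0 of 9 genes passed the test in either direction (19 were listed). The median was 0.11, with citrate synthase, *CS*, at 0.20 ± 0.13 and pyruvate carboxylase, *PC*, at -0.23 ± 0.13, and it turned to -0.024 once each gene's probes were averaged and to -0.23 with the dimmest probe. No gene of this list had an unadjusted p under 0.05. Of the carriers and channels of the mitochondrial membranes, 0 of 7 passed (1 at an unadjusted p under 0.05), with a median of 0.044 that turned below 0 under 5 of 16 alternatives, to -0.0071 after quantile normalisation, -0.0049 in the deposited table, -0.0061 without low gain b, -0.072 with averaged probes and -0.24 with the dimmest probe. *UCP3*, an uncoupling protein, was the dimmest of these, at -2.27 in low gain and -1.72 in high gain. It differed by -0.55 ± 0.11 (limma adjusted p = 0.183), and *VDAC1*, a channel of the outer membrane, by 0.097 ± 0.14. The assembly factors *PET100* and *HIGD2A*, both of complex IV, differed by 0.24 ± 0.11 and 0.16 ± 0.14. The other probe of *PET100* gave -0.032, and the groups overlapped for *HIGD2A*, read by 1 probe.

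Of 5 regulators of mitochondrial biogenesis, 4 were lower in low gain and 1 higher, with a median of -0.15 that stayed below 0 under all 16 alternatives, and 0 of 5 passed (3 at an unadjusted p under 0.05, 1 past the adjusted threshold with the intensity trend). *PPARGC1A*, the transcriptional coactivator that drives expression of respiratory chain genes, stood at 1.68 and 1.62 in low gain and at 0.99 and 1.13 in high gain. The groups did not overlap, and the difference was 0.59 ± 0.11 (limma adjusted p = 0.170), on 1 probe. *SIRT3*, a mitochondrial deacetylase, stood at -2.91 and -2.80 in low gain and at -1.89 and -2.16 in high gain, a difference of -0.83 ± 0.14 (limma adjusted p = 0.161). *SIRT1*, a nuclear deacetylase, differed by -0.38 ± 0.11 (limma adjusted p = 0.220). *TFAM*, which packs and transcribes mitochondrial DNA, differed by -0.10 ± 0.13. Of the mitochondrial ribosome 3 genes were measured, with *MRPS18B* at -0.59 and *MRPL52* at 0.20, and of protein import 2, *TOMM34* at -0.23 and *TOMM7* at 0.12. The other probes of *TOMM34* gave -0.93 and -0.72, and that of *TOMM7* gave 0.076. None of these 5 genes passed, and 1 had an unadjusted p under 0.05.

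Glycolysis, the cytosolic route to pyruvate and lactate, had a median of -0.21 over 9 genes, 8 of them lower in low gain and 0 past the test (3 at an unadjusted p under 0.05, 1 past the adjusted threshold with the intensity trend). *LDHA*, a lactate dehydrogenase, stood at 6.03 and 6.06 in low gain and at 6.30 and 6.39 in high gain (difference -0.29 ± 0.10, limma adjusted p = 0.263). *PGAM2*, the muscle phosphoglycerate mutase, differed by -0.58 ± 0.13. The hexokinase *HK2*, which was dim, was the 1 gene with a higher mean in low gain (0.62 ± 0.26). The 32 genes of the cytosolic ribosome, another set of abundant transcripts, had a median of 0.029, which turned to -0.0057 after quantile normalisation, and ran from -0.10 to 0.23, the furthest from 0 being *RPS15* at 0.23 and *RPL14* at 0.22.

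**Figure D5:**
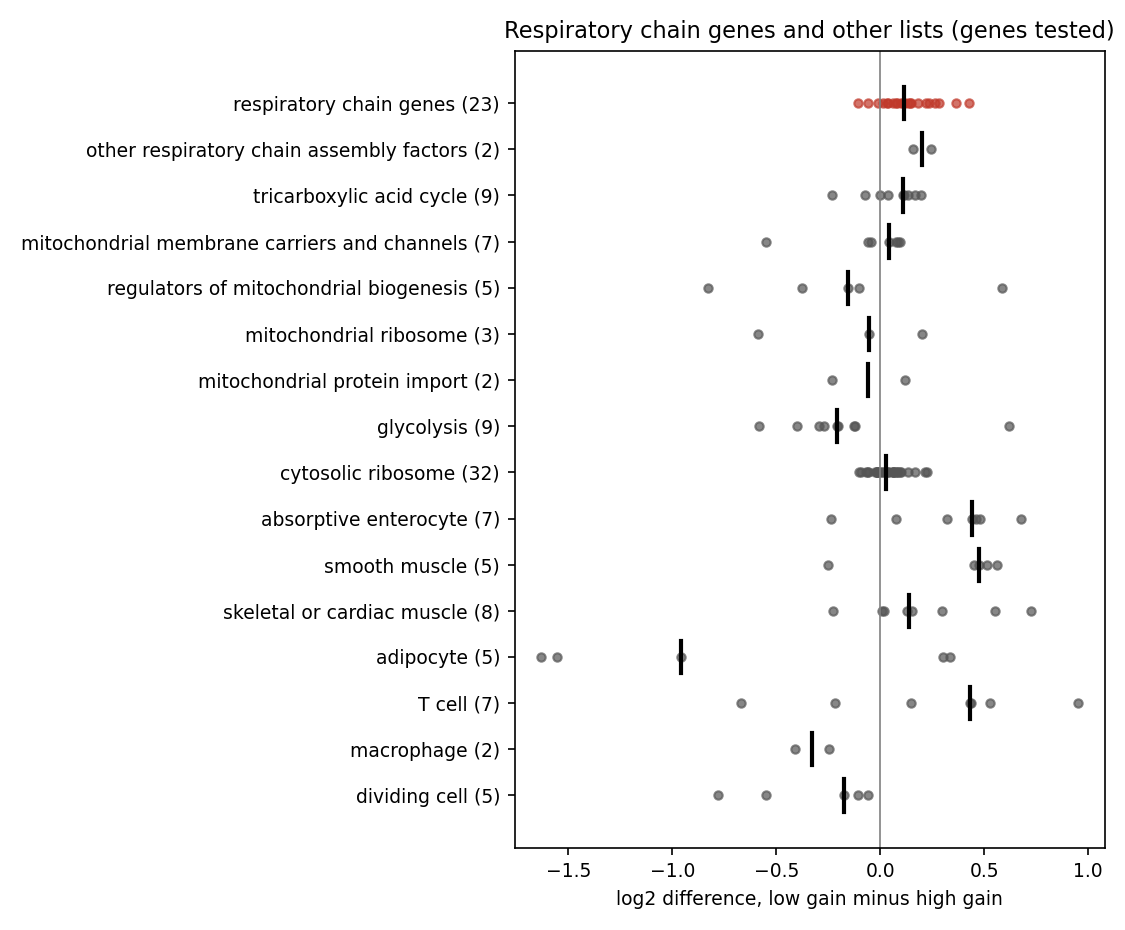
Log2 difference of low gain minus high gain of each tested gene (points) in the respiratory chain and in other lists of genes, with the median of each list as a black bar and the number of genes in brackets. The 23 respiratory chain genes span -0.11 to 0.43, 8 of 9 genes of glycolysis lie below 0, and the medians of enterocyte and smooth muscle markers are 0.44 and 0.48.

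Markers of several cell types differed by more than the respiratory chain genes. For absorptive enterocytes, 6 of the 7 markers measured were higher in low gain, with a median of 0.44, and their summed level, in multiples of the array's 75th percentile, was 422 to 428 on low-gain arrays and 344 to 347 on high-gain arrays. *ANPEP*, a brush-border peptidase, differed by 0.68 ± 0.097, and *FABP2*, a fatty acid binding protein, by 0.48 ± 0.12. The enterocyte marker that was lower was *APOA1*, at -0.24 ± 0.12, with -0.25 on its other probe. *SLC5A1*, counted as higher at 0.078 ± 0.11, had other probes from -0.63 to 0.069. For smooth muscle, 4 of 5 markers were higher, with a median of 0.48 and summed levels of 303 to 308 and of 233 to 235, and *MYLK*, the kinase of the myosin light chain, differed by 0.56 ± 0.11. Desmin, *DES*, differed by 0.51 ± 0.10, while its other probes gave -0.34 and -0.023. The smooth muscle marker that was lower was *ACTA2*, at -0.25 ± 0.15, and its other probes gave -0.61 to 0.23. For skeletal or cardiac muscle, where *COX7A1* is abundant, 7 of 8 markers were higher, with a median of 0.14 (-0.0090 with normexp background correction) and summed levels of 152 to 153 and of 132 to 140. Of these, the myosin heavy chain *MYH2*, which was dim (-5.38 in low gain and -6.10 in high gain), differed by 0.73 ± 0.14. Creatine kinase, *CKM*, differed by 0.55 ± 0.098, and its other probes gave -0.27 to 0.65. The striated muscle marker that was lower was *ACTC1*, at -0.23 ± 0.15, while its other probes gave 0.13 and 0.63. *TNNI2*, *TNNT3* and *TNNC1*, which define striated muscle, differed by 0.0075 to 0.15. *TNNC1* was well above background on 1 of the low-gain arrays. The summed level of markers of dividing cells (5 of 7 measured, median -0.17) was 29.4 to 31.0 in low gain and 32.8 to 33.4 in high gain, with *AURKA* at -0.78 and *CCNB2* at -0.55. For adipocytes, 2 of 5 were higher and 3 lower, with a median of -0.96 and summed levels of 1.82 to 2.69 and of 4.05 to 4.08. That median ran from -1.53 to -0.031 over the alternatives and was -0.43 without low gain b. *FABP4*, a fatty acid binding protein, differed by -1.55 ± 0.12 (limma adjusted p = 0.0561), and *PLIN1*, a coat protein of lipid droplets, by -1.63 ± 0.55, well above background on 1 of the low-gain arrays. The 2 that were higher in low gain were *CIDEC*, by 0.30 ± 0.098, and *LEP*, by 0.33 ± 0.95. In high gain *FABP4* was the brightest of the 5, at 1.61, and weighed most in the summed level. For T cells, 5 of 7 markers were higher, with a median of 0.43 (0.13 with normexp), but the summed level was lower in low gain, 13.4 to 13.6 against 16.7 to 18.4. That sum was weighted most by *CD247*, by far the brightest of the 7, at 3.17 in low gain and 3.84 in high gain. *CD8A* differed by 0.95 ± 0.11, but its other probe gave 0.030. *CD247* differed by -0.67 ± 0.12, with -0.86 on its other probe. The macrophage markers *CD163* and *CD14* differed by -0.41 and -0.25 (median -0.33, summed levels 4.38 to 4.52 and 5.59 to 5.80).

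None of these markers passed limma's test. An unadjusted p under 0.05, which 21.6% of named genes had, was found for 4 of 7 markers of enterocytes, 4 of 5 of smooth muscle, 3 of 8 of striated muscle, 3 of 5 of adipocytes, 5 of 7 of T cells, 1 of 2 of macrophages and 2 of 5 of dividing cells. With the intensity trend, under which 7.88% of named genes passed, the counts past the adjusted threshold were 3, 4, 1, 1, 2, 1 and 2 in the same order. The part of these cell types in the values of the respiratory chain genes was not tested.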

How the data were processed

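Pooled RNA labelled with Cy3 was hybridised to 4 1-colour pig arrays of 45220 spots. Per the file headers, the deposited spot intensity values come from Agilent's Feature Extraction software, version 10.7.3.1. How the authors made their deposited log2 table is not given in any source used here. On spots well above background its slope on log2 processed signal was 1.00 to 1.01, so it was taken as uncentred log2 signal and used as an alternative; its column medians were 5.70 to 5.78. Processed intensity was put on a log2 scale, the 75th percentile of non-control spots was subtracted, outlier spots were dropped and spots of 1 probe averaged. Probes well above background on both arrays of at least 1 group were tested, 33265 of 43603. Genes were named by matching RefSeq accessions, without versions, to the NCBI gene table of Sscrofa11.1 (5461 of 5779 such probes). A gene's brightest tested probe stood for it. The comparison used limma 3.58.1 (lmFit, then eBayes) under R 4.3.3, tested on simulated data. Members and lists were chosen with earlier results of these data known. Array values were given for cytochrome c, tissue isoforms and the extremes of each complex, and of other lists the 2 genes with the largest differences were named. Further genes were chosen after their values were seen. The result of 1 marker list is not reported here. The number of arrays limits precision. Alternatives were other background correction, normalisation, filters, prior variance, probe choice, a block by letter, and leaving out each array.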

Additional observations from a re-analysis of the deposited data

How the results depend on the processing

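The count of 0 respiratory chain genes past limma's test was the same under 15 of 16 alternatives, the exception being the intensity trend, with 1 (*CYCS*). Counts at an unadjusted p under 0.05 ran from 0 to 6 over the alternatives. With the letter as a replicate block the median stayed at 0.12 and 0 genes passed; deviations of same-letter arrays correlated at -0.037, and the labels tie the letters to no animal. The median of 0.12 was 0.020 without high gain a and 0.20 without high gain b, and lay between these values in the other alternatives. Single genes changed sign 17 times. After quantile normalisation *NDUFA4* was at -0.0076. With the mean over probes *ATP5E* was at -0.051, *NDUFA4* at -0.069 and *SDHB* at -0.040, and with the dimmest probe *ATP5E* was at -0.25, *NDUFA4* at -0.073, *NDUFB6* at -0.0043 and *SDHB* at -0.15. Leaving out 1 array, *ATP5A1* ran from -0.062 to 0.044, *SDHB* from -0.078 to 0.14 and *COX7C* from -0.094 to 0.17. *NDUFA4* then ran from -0.11 to 0.14, *UQCR10* from -0.024 to 0.19 and *NDUFB8* from -0.13 to 0.015. *ATP5A1* was also at 0.044 with the intensity trend without low gain a. The cause was not tested beyond the choice of probe or array itself. Normexp moved the arrays within each group apart (medians over the 23 genes of 1.70 for high gain a minus b and -1.88 for low gain a minus b). A version with bright backgrounds replaced, added like the trend without low gain a after the data were seen, gave a median of 0.096. Of all tested probes 80 passed, against 0 with normexp or the block, 12 without a filter, 0 with the filter on all 4 arrays, 163 with median centring, 25 with averaged probes, 1250 with the trend, 0 to 37 without 1 array, 1043 with backgrounds replaced and 197 with the trend without low gain a. *COX8H* was too dim to be measured.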
